A study of Mus musculus with 18 samples.

Results

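Myh6, Myh7, Myl7, Myl4, Actc1, Tnnt2, Tnni1, Tnnc1 and Ttn encode proteins of the cardiac sarcomere, the contractile unit of heart muscle. They were chosen by name and make up 9 of the 31053 mouse genes in the count tables. UMIs (unique molecular identifiers, each standing for 1 captured RNA molecule) of these genes were read in every cell barcode with 1500 or more mouse UMIs, by embryo, genotype and cell class.

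The data are single-cell RNA-seq profiles (10x Genomics, 3′ chemistry) of 18 libraries. Each library was labelled as made from a single, whole, dissociated mouse embryo of the 129S4/SvJae background at embryonic day 8.5 (E8.5). Of the 18 libraries, 7 were labelled wild type (WT), 3 null for Dnmt1, 4 null for Dnmt3a and 4 null for Dnmt3b. The null groups are called Dnmt1 KO, Dnmt3a KO and Dnmt3b KO here. The KO embryos came from matings of heterozygous parents, carried the null allele in every tissue, and were genotyped from the ectoplacental cone. DNMT1 copies DNA methylation onto newly replicated strands, and DNMT3A and DNMT3B add it to unmethylated sites, so each group was labelled as null for 1 of the enzymes that write the mark.

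Thick filaments of the sarcomere are built from myosin heavy chains with their light chains, and thin filaments from actin carrying the troponin complex, which makes contraction depend on calcium. Titin spans from the Z-disc to the middle of the sarcomere and holds the thick filament in place. The genes are switched on together as heart progenitors differentiate, and at this stage they are known as the transcripts that separate beating cardiomyocytes from their precursors.

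After filters on UMIs, mitochondrial and ribosomal share and doublets, 109962 cells remained, from 1366 to 12716 per library, with median UMIs per cell from 4463.5 to 59714. The targeted transcripts were read first, in CPM, a gene's UMIs per 1000000 UMIs of all kept cells of a library. Dnmt1 lay at 14.9, 15.7 and 15.1 CPM in Dnmt1 KO 1, 2 and 3 and at 83.3 to 116 CPM in WT. Dnmt3a lay at 8.57, 9.70, 7.35 and 11.7 CPM in Dnmt3a KO 1, 2, 13 and 14 and at 23.1 to 34.97 CPM in WT. Dnmt3b lay at 54.3, 60.1, 63.5 and 68.4 CPM in Dnmt3b KO 1, 2, 11 and 12, inside the WT range of 35.4 to 87.2 CPM. Counts at the 3′ end may lie outside the deleted part of the gene, so this last level checks nothing. The 2 libraries labelled Dnmt3b KO 11 and 12 also had Dnmt3a at 15.1 and 7.55 CPM, below every WT library. Whether these 2 libraries carry the right label could not be settled from the counts, so fold changes of this group over the whole embryo are also given without them. Dnmt3b KO 1 and Dnmt3b KO 2 shared 12249 cell barcodes, 86.5% and 79.3% of their totals, where no other of the 153 library pairs shared more than 133. The pair was summed into 1 unit, Dnmt3b KO 1+2, which leaves 17 units and 3 in the Dnmt3b KO group. Of the barcodes that passed, 8698 were shared by the pair. Cells of this unit, and of the 109962, may therefore be counted more than once. All 3 Dnmt1 KO embryos were male and 1 of the 7 WT embryos was, so that embryo is given apart for Dnmt1 KO. All 4 Dnmt3a KO embryos were male as well, as were Dnmt3b KO 1+2 and 11, while Dnmt3b KO 12 was female. Sex thus differed between WT and each KO group.

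DNA methylation in mammals falls on CG dinucleotides, and promoter sequence is shown because most members fell together in Dnmt1 KO embryos. No methylation was measured in these libraries. The 250 bases upstream of a transcript start (RefSeq, GRCm38.p6) were available for all 9 members in 12 windows, and are printed 5′ to 3′ on the gene's strand with every CG in capitals. The windows below are those of Myh7 at chr14:54994627-54994876 (minus strand, 5 CG), Myl7 at chr11:5898783-5899032 (minus strand, 4 CG), Myl4 at chr11:104550413-104550662 (plus strand, 23 CG) and Tnnt2 at chr1:135836084-135836333 (plus strand, 5 CG).
Myh7: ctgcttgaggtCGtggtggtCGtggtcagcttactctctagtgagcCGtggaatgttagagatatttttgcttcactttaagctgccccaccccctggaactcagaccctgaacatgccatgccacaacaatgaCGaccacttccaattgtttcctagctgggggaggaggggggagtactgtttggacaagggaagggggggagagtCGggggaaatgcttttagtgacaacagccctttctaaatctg
Myl7: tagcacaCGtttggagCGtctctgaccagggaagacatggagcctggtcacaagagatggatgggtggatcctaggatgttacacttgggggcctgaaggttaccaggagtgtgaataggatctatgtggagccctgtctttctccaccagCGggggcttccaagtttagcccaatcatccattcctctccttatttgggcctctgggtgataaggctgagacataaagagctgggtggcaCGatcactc
Myl4: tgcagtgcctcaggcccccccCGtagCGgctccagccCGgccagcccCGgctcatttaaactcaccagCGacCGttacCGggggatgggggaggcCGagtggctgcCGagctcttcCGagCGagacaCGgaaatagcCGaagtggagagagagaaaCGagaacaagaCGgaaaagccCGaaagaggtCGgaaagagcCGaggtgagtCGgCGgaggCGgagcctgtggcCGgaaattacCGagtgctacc
Tnnt2: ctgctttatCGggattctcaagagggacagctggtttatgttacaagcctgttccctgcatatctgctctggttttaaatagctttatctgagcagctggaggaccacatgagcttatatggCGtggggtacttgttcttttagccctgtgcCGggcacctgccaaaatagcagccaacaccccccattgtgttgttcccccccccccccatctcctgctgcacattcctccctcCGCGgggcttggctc
The median window of all 32851 in the RefSeq table holds 6 CG, with quartiles at 2 and 16, and 10 of the 12 member windows lie below that median. Myl4, at 23 CG, stands above the upper quartile. A CArG box, the motif read by serum response factor, was searched on both strands and occurs in 2 of the 12 windows, 61 bases before the start of Myl7 and 47 bases before the start of Actc1, against 1.47% of all windows. The letters GATA occur on either strand in 9 of the 12 windows, against 53.6% of all windows. These matches describe the letters in the window and carry no information on binding.

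To see where the genes are used in normal embryos, cells were clustered without the 9 members and without 56 other sarcomere, calcium and energy genes, and clusters were named from markers that hold none of them. Cells called cardiomyocyte-like expressed Nkx2-5, Tbx5, Tbx20 and other heart markers. In WT embryos each of the 9 members had its highest level in the cardiomyocyte-like class, and the WT embryos with the lowest level there still lay above all WT embryos of the next class. Values are means over WT embryos ± SD, of which 7 had enough cells in the cardiomyocyte-like, ExE mesoderm-like, erythroid-like and gut-like classes, 6 in the pharyngeal mesoderm-like and allantois-like classes and 3 in the immune-like class, and because UMIs are not scaled to transcript length they are compared between classes and never between genes.

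Among thick filament genes, Myh6, the alpha myosin heavy chain that becomes the main atrial and adult mouse form, stood at 791 ± 218 CPM in cardiomyocyte-like cells, 235-fold above the 3.36 CPM of the next class. Myh7, the beta heavy chain of the embryonic ventricle, stood at 449 ± 173 CPM, 13.6-fold above the 33.0 CPM of pharyngeal mesoderm-like cells. Myl7, the atrial regulatory light chain and an early marker of the heart tube, stood at 8423 ± 2206 CPM, 28.2-fold above the 299 CPM of pharyngeal mesoderm-like cells. By this ratio Myh6 was the member most narrowly held in the class, while the pharyngeal mesoderm-like class, which contains second heart field progenitors, held low levels of the others. Myl4, the atrial essential light chain, stood at 3895 ± 996 CPM, 18.9-fold above pharyngeal mesoderm-like cells at 206 CPM.

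The thin filament genes and Ttn peaked in the same class. Actc1, the cardiac alpha actin, stood at 6597 ± 2241 CPM, 94.5-fold above the 69.8 CPM of allantois-like cells. Tnnt2, which anchors troponin to tropomyosin, stood at 3539 ± 669 CPM, 19.5-fold above the 182 CPM of pharyngeal mesoderm-like cells. Tnni1, the slow skeletal inhibitory troponin that embryonic hearts use before the cardiac form, stood at 1544 ± 399 CPM, 9.44-fold above the 164 CPM of pharyngeal mesoderm-like cells. It was the member least confined to heart cells. Tnni1 also reached 94.7 CPM in extraembryonic (ExE) mesoderm-like cells, 62.5 CPM in immune-like cells and 29.97 CPM in erythroid-like cells. Tnnc1, the calcium-binding troponin of heart and slow muscle, stood at 1877 ± 412 CPM, 37.7-fold above the 49.8 CPM of pharyngeal mesoderm-like cells, and was also read at 46.9 CPM in ExE mesoderm-like and 41.9 CPM in gut-like cells. Ttn, which encodes titin, stood at 2969 ± 918 CPM, 26.6-fold above the 112 CPM of pharyngeal mesoderm-like cells.

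The cardiomyocyte-like class contributed 73.5% of all WT UMIs of Tnni1, 82.8% of Tnnc1, 85.7% of Myh7, 87.8% of Tnnt2, 92.2% of Myl4, 92.8% of Myl7, 94.5% of Actc1, 95.8% of Ttn and 96.5% of Myh6. Whole-embryo sums of most members thus came largely from this class, and those of Tnni1 less so.

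**Figure D1:**
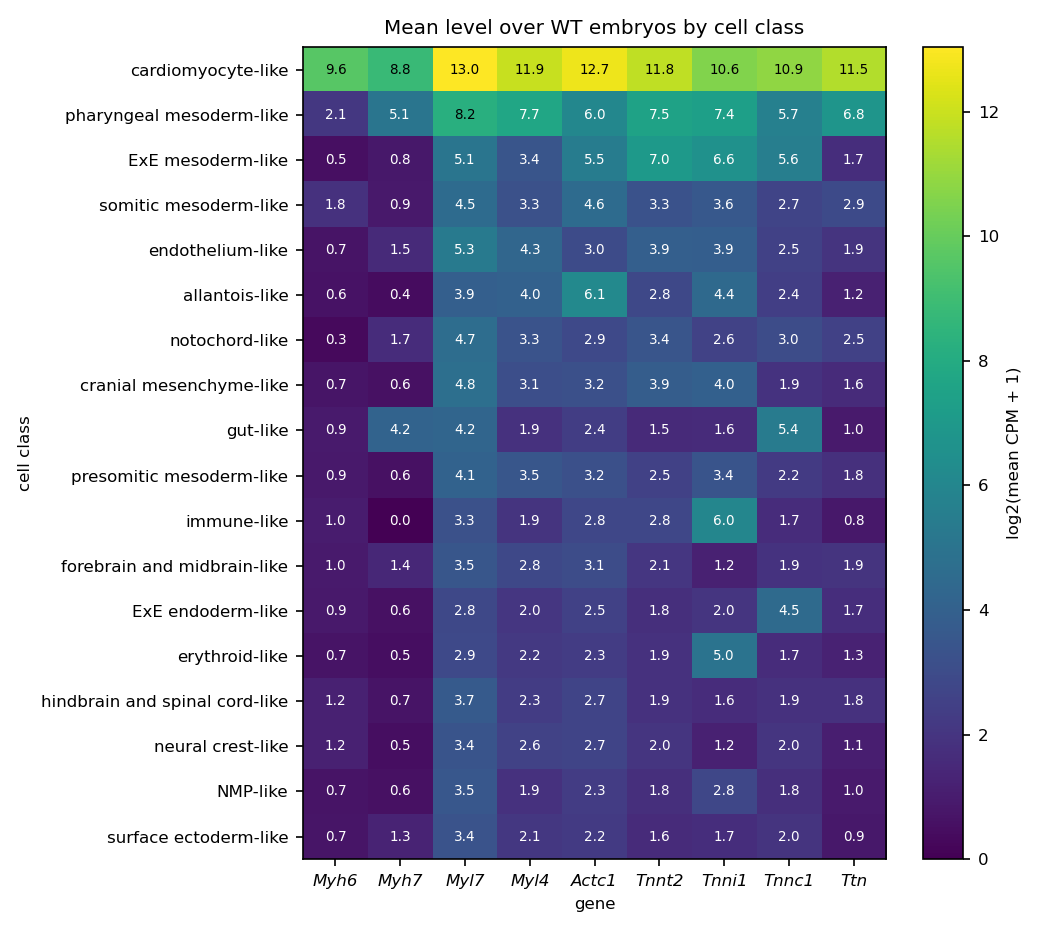
Mean level of the 9 genes in 18 cell classes of WT embryos, shown as colour on a log2(CPM + 1) scale, with classes in rows and genes in columns. The cardiomyocyte-like row is the brightest for every gene, Tnni1 and Tnnt2 are also visible in pharyngeal mesoderm-like and ExE mesoderm-like cells, and Myh6 reaches at most 3.36 CPM elsewhere.

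Cardiomyocyte-like cells carried many members at once. With each cell thinned to 1500 UMIs, a WT cardiomyocyte-like cell held UMIs of 6.40 ± 0.626 of the 9 members (mean ± SD over 7 embryos; 7.99 before thinning), a WT pharyngeal mesoderm-like cell 1.02 ± 0.106, and a WT erythroid-like cell 0.101. Myl7 was detected in 86.2% of thinned WT cardiomyocyte-like cells (99.1% unthinned) and in 1.17% of erythroid-like cells (14.96% unthinned), which should lack it. Myh6 was detected in 47.4% and 0.214% of the same thinned classes (72.7% and 2.01% unthinned). Tnni1 was detected in 77.6% and 4.85% (98.4% and 46.0% unthinned). Median depths per WT embryo ran from 21027.5 to 58999.5 UMIs in cardiomyocyte-like and from 12193 to 67077.5 UMIs in erythroid-like cells, so the 2 classes overlapped in depth. The class itself had 3 main clusters in the 3 groups that held it, numbered 35, 40 and 52. Pooled over WT embryos, Myl7 stood at 12762, 2072 and 11416 CPM in them, Ttn at 4390, 612 and 427 CPM, and Myh7 at 684, 33.7 and 261 CPM. Cluster 52 was shallow, with a median of 3878 UMIs per WT cell.

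The question for the KO embryos was whether loss of a DNA methyltransferase changes the use of these genes. Counts were summed per embryo and tested with edgeR's quasi-likelihood test over 18760 genes, and a gene was called at a Benjamini-Hochberg adjusted p under 0.01 with an absolute log2 fold change of at least 1. In Dnmt1 KO relative to WT, 7 of the 9 members were called lower and none higher, where 14.3% of all genes were called, 6.11% lower and 8.15% higher. The members' median log2 fold change was -2.23, against 0.01 for all genes. In these sums, fewer cells of a type and less RNA per cell cannot be told apart, and the counts of cells are given further on.

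The myosin heavy chains showed the largest fold changes among the members. Myh6 ran from 16.9 through a median of 23.7 to 35.2 CPM over the 7 WT embryos and lay at 1.31, 0.592 and 0.638 CPM in Dnmt1 KO 1, 2 and 3. Myh7 ran from 9.33 through 13.4 to 26.0 CPM in WT and lay at 1.26, 0.152 and 0.463 CPM in the 3 KO embryos. Every KO embryo was far below every WT embryo for both genes, and Dnmt1 KO 1 was the highest of the 3. The log2 fold change was -4.78 ± 0.45 for Myh6 (SE; adjusted p = 5.6e-07) and -4.60 ± 0.60 for Myh7 (adjusted p = 1.54e-05). Without Dnmt1 KO 1 the fall of Myh7 was larger, at -5.66. The 2 genes lie head to tail on the minus strand of chromosome 14, 3757 bases apart (mm10, GENCODE vM21: Myh6 chr14:54941921-54966927, Myh7 chr14:54970684-54994626). Their coding sequences are nearly identical, so reads could be split between them, and an antisense transcript, Mhrt, overlaps Myh7.

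The light chains fell less. Myl7 ran from 202 through a median of 258 to 417 CPM in WT and lay at 103, 25.9 and 135 CPM in Dnmt1 KO 1, 2 and 3. Myl4 ran from 98.5 through 118 to 199 CPM in WT and lay at 31.2, 6.93 and 29.5 CPM in Dnmt1 KO. Neither gene overlapped between the groups, and Dnmt1 KO 2 was the lowest embryo for both. Dnmt1 KO 2 held 948 ExE ectoderm-like and 817 ExE endoderm-like cells of 3054 kept. Dnmt1 KO 1 held 82 and 421 of 1464, and Dnmt1 KO 3 held 115 and 245 of 2550. How far these cells set the embryo's level was not tested. Myl4 fell by 2.45 ± 0.39 on the log2 scale (edgeR, adjusted p = 0.000132). Myl7 fell by 1.57 ± 0.38 (adjusted p = 0.00395), a call that was lost without Dnmt1 KO 1 (adjusted p = 0.0145), without Dnmt1 KO 2 (adjusted p = 0.0103) or with the Y-linked covariate (adjusted p = 0.031). That covariate is the sex of the embryo, male or female, as called from Y-linked counts.

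Of the thin filament genes, Actc1 and Tnnc1 were called lower and the other 2 troponins were not. Actc1 ran from 134 through a median of 218 to 346 CPM in WT and lay at 30.1, 3.11 and 16.8 CPM in Dnmt1 KO 1, 2 and 3. Tnnc1 ran from 56.0 through 61.0 to 94.5 CPM in WT and lay at 27.6, 16.9 and 21.96 CPM in Dnmt1 KO. The groups did not overlap for either gene. Actc1 fell by 3.62 ± 0.53 on the log2 scale (edgeR, adjusted p = 5.75e-05; -4.33 without Dnmt1 KO 1) and Tnnc1 by 1.56 ± 0.22 (adjusted p = 4.64e-05).

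Tnnt2 ran from 104 through a median of 108 to 153 CPM in WT and lay at 77.5, 27.0 and 79.9 CPM in Dnmt1 KO, so the KO embryos again lay below all WT embryos. Its log2 fold change of -0.91 ± 0.28 (edgeR, adjusted p = 0.0171) did not pass the call, and passed it without Dnmt1 KO 3 (adjusted p = 0.00806). Tnni1 ran from 46.6 through 57.0 to 97.5 CPM in WT and lay at 89.9, 41.3 and 99.6 CPM in Dnmt1 KO. It was the only member whose groups overlapped, with 1 KO embryo above and 1 below the WT range. Its log2 fold change was 0.34 ± 0.29 (adjusted p = 0.386).

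Ttn ran from 56.9 through a median of 93.2 to 126 CPM in WT and lay at 31.9, 4.93 and 19.9 CPM in Dnmt1 KO, below every WT embryo. It fell by 2.23 ± 0.46 on the log2 scale (edgeR, adjusted p = 0.0012). In all, 8 of the 9 members had every Dnmt1 KO embryo below every WT embryo, where 16.4% of all genes did. The male WT embryo, WT 2, also lay above all 3 Dnmt1 KO embryos for these 8 members, with Myl7 at 258 CPM, Actc1 at 236 CPM and Myh6 at 24.8 CPM. Tested against the other KO groups, 5 members were lower in Dnmt1 KO than in Dnmt3a KO (Myl4, Actc1, Tnnc1, Myh6 and Myh7; 6.46% of genes called lower) and 8, all but Tnni1, were lower than in Dnmt3b KO (4.96% of genes called lower). Between Dnmt3b KO and Dnmt3a KO none was called (edgeR, 0.213% of genes called; 6 members at an unadjusted p under 0.05; DESeq2 was not run on this contrast). Without the libraries labelled Dnmt3b KO 11 and 12, which leaves 1 Dnmt3b KO unit whose spread is taken from the other groups, 6 members were called lower in Dnmt1 KO than in it (2.48% of genes called lower), and the calls of Myl7 (edgeR adjusted p = 0.0236) and Tnnt2 (0.0248) were lost. For that unit against Dnmt3a KO, log2 fold changes ran from 0.74 to 1.57, with 0.0356% of genes called (edgeR), 0 members called and 4 members at an unadjusted p under 0.05; with 1 unit this says nothing of equality.

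**Figure D2:**
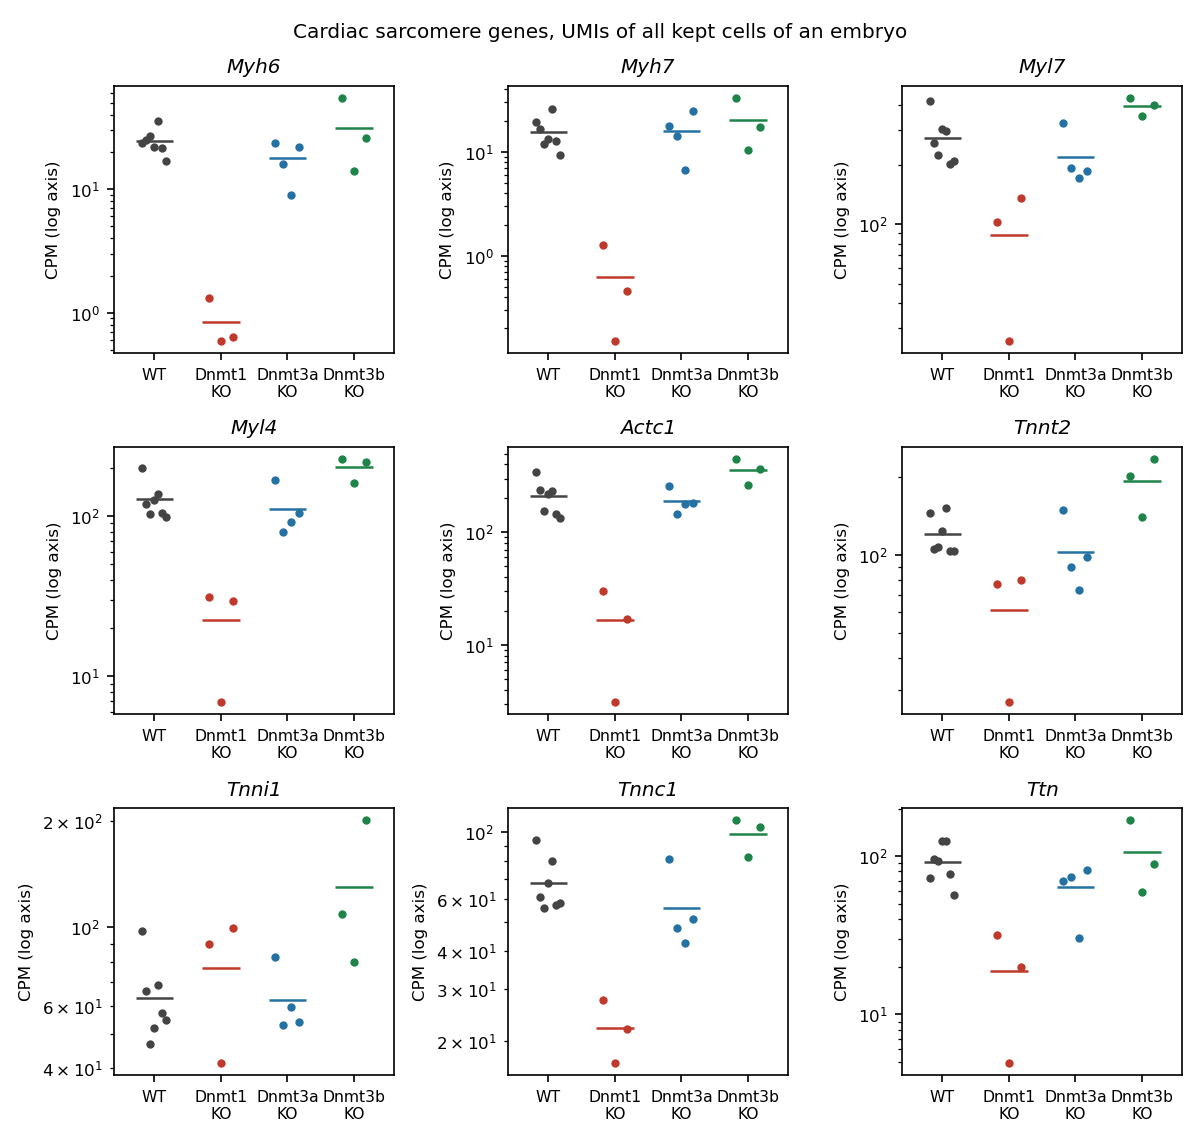
Level of each of the 9 genes in every embryo, as CPM over all kept cells on a log axis, with 1 dot per embryo by group and a line at the group mean; Dnmt3b KO 1 and 2 are 1 dot. Dnmt1 KO dots lie below all WT dots for every gene but Tnni1, where they run from 41.3 to 99.6 CPM against 46.6 to 97.5 CPM in WT.

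Cells were then counted by class. The class is itself called from RNA, so this count is not independent of expression. Cardiomyocyte-like cells made up 3.03% ± 0.641 of kept cells in WT (SD, n = 7; 1.81% to 3.82%). Dnmt1 KO 1 held 1 such cell of 1464, and Dnmt1 KO 2 and Dnmt1 KO 3 held 0 of 3054 and 0 of 2550, which allow shares of up to 0.0982% and 0.118%. Pooled over the 3 embryos this is 1 of 7068 cells, or 0.0141% (exact binomial 95% interval 0.000358% to 0.0788%, counting error only). Shares were compared on a log2 scale with 0.5 cells added, which sets the size of the difference here, and every KO embryo lay below every WT embryo (exact two-sided permutation test over embryos, p = 0.00833, the smallest that 3 against 7 embryos can give; adjusted over 3 comparisons p = 0.025). With any 1 of the 3 KO embryos left out the adjusted p was 0.0833, where the smallest unadjusted p possible is 0.0278. The level of the members inside the cardiomyocyte-like class could therefore not be tested for Dnmt1 KO. Counts at or near 0 were not particular to this class. Dnmt1 KO 1, 2 and 3 each held 0 cells called pharyngeal mesoderm-like, somitic mesoderm-like, neural crest-like or surface ectoderm-like. They also held 0 called forebrain and midbrain-like or hindbrain and spinal cord-like, where all 7 WT embryos held cells of each of these classes. These are counts of named cells only. In Dnmt1 KO 1, 2 and 3, 418 of 1464, 620 of 3054 and 1489 of 2550 kept cells stayed unnamed. In WT 2 and WT 5, 2084 of 7192 and 356 of 1366 did. A count of 0 therefore does not show that a cell type was missing.

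Pooled over the 3 Dnmt1 KO embryos, most UMIs of 7 of the 9 members came from a cluster of 510 cells, 494 of them from Dnmt1 KO (136, 120 and 238 in Dnmt1 KO 1, 2 and 3). The cluster stayed unnamed because its best marker score, 0.923 for pharyngeal mesoderm with 5 markers seen, was below the minimum of 1. Its leading genes were Sphkap, Mef2c, a transcription factor of the early heart, and Sfrp5, a secreted WNT inhibitor found in heart progenitors. This cluster carried 75.8% of the pooled Dnmt1 KO UMIs of Myl7, 78.0% of Myl4, 78.7% of Actc1, 67.7% of Myh7 and 88.6% of Ttn. It carried 58.3% of Myh6, 52.8% of Tnnt2, 38.1% of Tnni1 and 37.1% of Tnnc1. The shares differed between embryos. The cluster carried most UMIs in each of the 3 embryos for Myl7, Myl4 and Ttn only. For Myh6 it carried 81.8%, 11.5% and 66.7% in Dnmt1 KO 1, 2 and 3, and ExE ectoderm-like cells carried 75.6% in Dnmt1 KO 2. For Myh7 it carried 83.3%, 25% and 35.1%, and for Tnnc1 51.3%, 10.3% and 48.03%. The heavy chain shares rest on few counts, with 137, 78 and 51 UMIs of Myh6 and 132, 20 and 37 UMIs of Myh7 in the 3 embryos.

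In the unnamed cluster Myl7 lay at 961, 446 and 580 CPM in Dnmt1 KO 1, 2 and 3, Tnnt2 at 509, 260 and 263 CPM, and Tnni1 at 400, 289 and 265 CPM. Ttn lay at 345, 102 and 93.2 CPM and Actc1 at 293, 43.8 and 69.1 CPM. Myh6 lay at 12.2, 2.04 and 2.42 CPM and Myh7 at 11.96, 1.13 and 0.924 CPM. All of these are below the level of the same gene over the whole WT cardiomyocyte-like class, and for Myl7, Tnnt2 and Tnni1 above the WT pharyngeal mesoderm-like mean. By cluster of that class, Ttn of Dnmt1 KO 1 was above cluster 40 of WT 7 (280 CPM) and cluster 52 of WT 1 (252 CPM). The other genes named stayed below each main cluster in every WT embryo with at least 25 cells in it. Dnmt1 KO 1 was the highest of the 3 embryos for each of the 7 genes named. Myl7 was detected in 36.3% of the cluster's cells thinned to 1500 UMIs (87.9% unthinned), Tnnt2 in 27.4% (70.3%), Ttn in 15.7% (48.6%), Myh7 in 0.875% (9.13%) and Myh6 in 0.245% (8.25%). In WT erythroid-like cells, which should lack Myh6, the share was 0.214% thinned and 2.01% unthinned, and the level 0.608 CPM, at most 1.44 CPM in an embryo. A thinned cell of the cluster held 1.47 ± 0.345 members (SD, n = 3; 4.34 unthinned), at median depths of 34075.5 to 56714 UMIs per embryo.

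**Figure D3:**
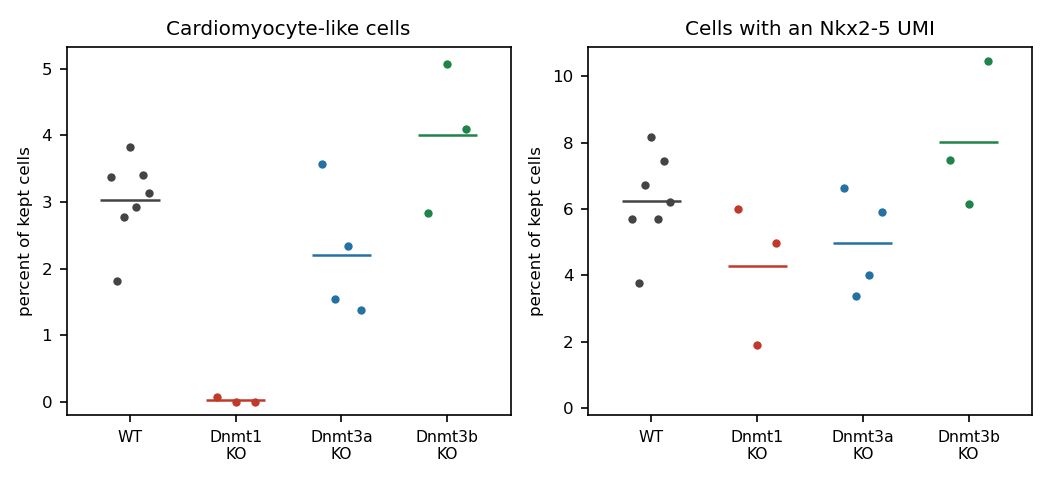
Percent of kept cells in each embryo that were cardiomyocyte-like and percent with at least 1 UMI of Nkx2-5, with 1 dot per embryo by group. Cardiomyocyte-like cells are at or near 0 in the 3 Dnmt1 KO embryos, while cells with an Nkx2-5 UMI make up 6.01%, 1.90% and 4.98% of them.

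A pool that did not rest on clusters was added after these values were seen, namely every kept cell with at least 1 UMI of Nkx2-5, the homeodomain factor of heart progenitors and cardiomyocytes. Such cells made up 6.25% ± 1.42 of WT cells (3.77% to 8.17%) and 6.01%, 1.90% and 4.98% of cells in Dnmt1 KO 1, 2 and 3 (88, 58 and 127 cells). An Nkx2-5 UMI was seen in 81.0% of WT cardiomyocyte-like cells and 60.2% of pharyngeal mesoderm-like cells, in 32.8% of the unnamed cluster in Dnmt1 KO, and in 0.976% of WT erythroid-like cells, which should lack it (median depths of 32306, 34586, 48074 and 31435 UMIs, not thinned). The kinds of cell pooled differed between the groups. Of these cells, 33.2% to 46.1% were cardiomyocyte-like in WT, and 56.8%, 51.7% and 64.6% were in the unnamed cluster in Dnmt1 KO, so that the share of differentiated cells and the level per cell cannot be told apart here either.

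Within the Nkx2-5 pool all 9 members were called lower in Dnmt1 KO than in WT, where 6.83% of 14146 genes were called and 3.98% called lower. Myh6 ran from 215 through a median of 316 to 484 CPM in WT and lay at 14.3, 6.89 and 4.33 CPM in Dnmt1 KO 1, 2 and 3. Actc1 ran from 1669 through 2315 to 5690 CPM in WT and lay at 321, 94.1 and 100.2 CPM. Tnni1 ran from 431 through 537 to 1272 CPM in WT and lay at 279, 197 and 220 CPM. For each of these genes every KO embryo lay below every WT embryo. Over the whole embryo 16.4% of all genes did so, and the share within the pool was not counted. Log2 fold changes were -5.06 ± 0.47 for Myh6, -4.78 ± 0.62 for Myh7, -3.92 ± 0.50 for Actc1, -2.87 ± 0.37 for Tnnc1, -2.87 ± 0.36 for Myl4, -2.48 ± 0.33 for Ttn, -2.06 ± 0.33 for Myl7, -1.998 ± 0.27 for Tnnt2 and -1.39 ± 0.31 for Tnni1, with edgeR adjusted p from 9.51e-07 (Myh6) to 0.00351 (Tnni1). Without Dnmt1 KO 1 the log2 fold changes of Myh7, Myh6 and Actc1 were -6.64, -5.79 and -4.73. The call of Tnni1 was lost without Dnmt1 KO 2 (adjusted p = 0.0272), without Dnmt1 KO 3 (adjusted p = 0.016) and with the Y-linked covariate (adjusted p = 0.0378), and the other 8 calls held in each of these. In the same pool none of the 9 was called in Dnmt3a KO (0.099% of genes called) or Dnmt3b KO (0.827%), with 0 at an unadjusted p under 0.05 and 0 by DESeq2 in each.

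**Figure D4:**
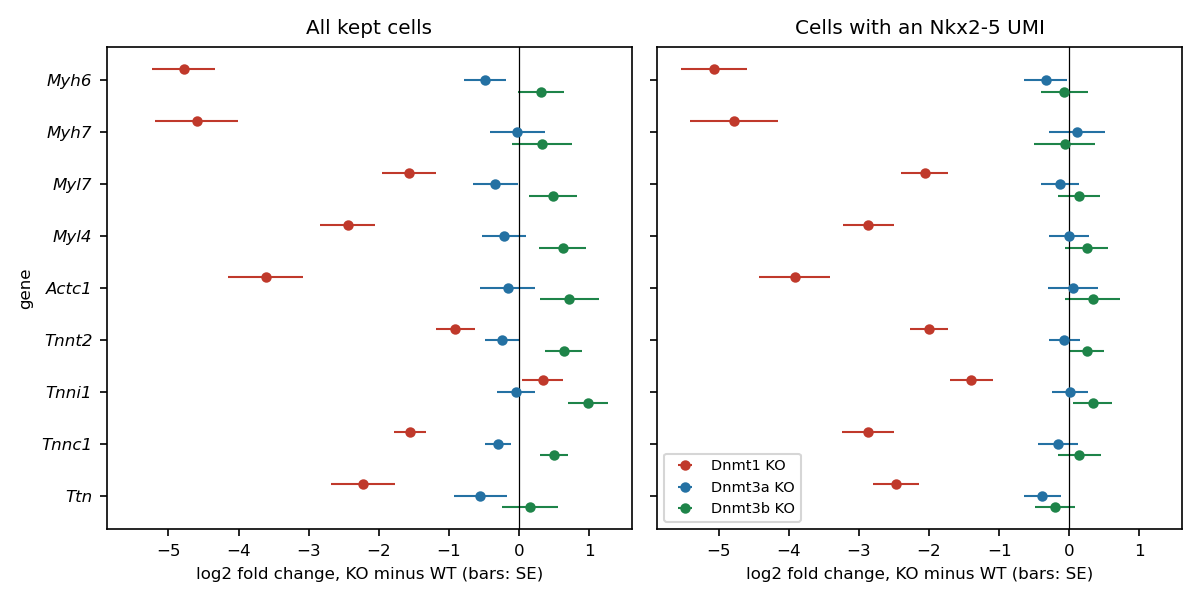
Log2 fold change of each gene against WT with its SE, over all kept cells and over cells with an Nkx2-5 UMI, for the 3 KO groups. In Dnmt1 KO the values run from 0.34 (Tnni1) to -4.78 (Myh6) over all cells and from -1.39 to -5.06 in the Nkx2-5 pool, while the Dnmt3a KO and Dnmt3b KO values stay within 1 log2 unit of 0.

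In Dnmt3a KO embryos none of the 9 members was called over the whole embryo (edgeR; 0 at an unadjusted p under 0.05; 0 by DESeq2), where 0.224% of genes were called. Log2 fold changes ran from -0.55 ± 0.37 for Ttn to -0.02 ± 0.40 for Myh7, and all 9 were negative, with a median of -0.24. Myl7 lay at 324, 192, 171 and 186 CPM in Dnmt3a KO 1, 2, 13 and 14, and Myh6 at 23.8, 16.0, 9.02 and 22.004 CPM. All 9 members overlapped WT, where 0.171% of genes had every Dnmt3a KO embryo below and 2.05% above every WT embryo, and Dnmt3a KO 13 lay below every WT embryo for Myh6, Myh7 (6.74 CPM) and Ttn (30.5 CPM). Of the 4 embryos, 3 lay below every WT embryo for Myl7, Tnnt2 and Tnnc1, 2 for Myl4 and Myh6, 1 for Myh7 and Ttn, and 0 for Actc1 and Tnni1. The share of all genes with only some of the 4 embryos below WT was not counted, so nothing is read from these numbers. Cardiomyocyte-like cells made up 3.57%, 1.38%, 1.54% and 2.34% of cells in the 4 embryos, 2.21% ± 1.00 (SD). The log2 difference from WT was -0.53 (exact permutation p = 0.1, adjusted p = 0.15), and was -0.80 without Dnmt3a KO 1 (adjusted p = 0.025), so 1 embryo decided this call.

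In the Dnmt3b KO group none of the 9 members was called either (edgeR; 3 at an unadjusted p under 0.05, namely Tnni1, Tnnc1 and Tnnt2; 0 by DESeq2), where 1.8% of genes were called. All 9 log2 fold changes were positive, from 0.16 ± 0.40 for Ttn to 0.98 ± 0.28 for Tnni1 (adjusted p = 0.0659), with a median of 0.50. Tnni1 lay at 109, 79.6 and 202 CPM in Dnmt3b KO 1+2 and in those labelled Dnmt3b KO 11 and 12, and Myh6 at 54.3, 14.1 and 25.8 CPM. All 9 members overlapped WT, where 0.88% of genes had every unit below and 5.62% above every WT embryo. The 3 units were far apart for the heavy chains and Ttn, where Dnmt3b KO 1+2 was the highest of all 17 units, and without that unit the log2 fold changes of Myh6, Myh7 and Ttn were -0.31, -0.18 and -0.32. Without the libraries labelled Dnmt3b KO 11 and 12, which leaves 1 unit in the group and takes its spread from the other groups, log2 fold changes ran from 0.58 (Myl7) to 1.08 (Myh6). Cardiomyocyte-like cells made up 4.10%, 2.84% and 5.07% of the 3 units, 4.003% ± 1.12 (SD), and the log2 difference from WT was 0.39 (exact permutation p = 0.175, adjusted p = 0.175).

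The members were then compared inside the cardiomyocyte-like class in these 2 groups. Cluster 35 made up 41.5% to 65% of the class in WT embryos, 25% to 62.1% in Dnmt3a KO and 46% to 50.9% in Dnmt3b KO. Cluster 52 made up 14.2%, 14.7% and 15.7% of the pooled class, so the class was not the same mix of cells in every embryo. None of the 9 was called in Dnmt3a KO (0.0511% of 11746 genes called) or Dnmt3b KO (0.613%), with edgeR, 0 at an unadjusted p under 0.05 and 0 by DESeq2 in each. Myl7 ran from 5897 to 12178 CPM over WT embryos, from 6531 to 9453 CPM in Dnmt3a KO, and lay at 9161, 10539 and 7483 CPM in Dnmt3b KO 1+2, 11 and 12. Ttn ran from 1674 to 3991 CPM in WT, from 1639 to 3387 CPM in Dnmt3a KO, and lay at 3627, 1801 and 1679 CPM in Dnmt3b KO. The Myl7 values of both KO groups lay inside the WT range, as did those of Ttn in Dnmt3b KO, while the lowest Dnmt3a KO embryo had Ttn just below it. Actc1, Tnnt2 and Tnni1 also stayed inside. Myh6 (497 to 1148 CPM in WT) left the range in Dnmt3a KO 2 (446), Dnmt3b KO 11 (442) and Dnmt3b KO 1+2 (1160). Myh7 lay above it in Dnmt3a KO 14 (972 against at most 764 CPM). Dnmt3a KO 2 lay below it for Tnnc1 (1207 against 1445 CPM) and Myl4 (2758 against 2774 CPM). Log2 fold changes ran from -0.37 ± 0.25 (Ttn) to 0.22 ± 0.30 (Myh7) in Dnmt3a KO and from -0.34 ± 0.27 (Ttn) to 0.30 ± 0.25 (Actc1) in Dnmt3b KO. The Dnmt3b KO values average over units that differed. Libraries 11 and 12, whose label is unsettled, lay below Dnmt3b KO 1+2 for Ttn. They did so too for Myh6 (442 and 499 against 1160 CPM) and Myh7 (287 and 317 against 640 CPM), but not both for Myl7. No fit of this class left out both libraries. A thinned cell held 6.202 ± 0.266 members in Dnmt3a KO and 6.54 ± 0.330 in Dnmt3b KO, beside 6.40 ± 0.626 in WT.

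Levels in the class also differed with the reference on which libraries were counted. In cardiomyocyte-like cells Ttn had a median of 1956 CPM in the 4 libraries whose reads were counted against joint human and mouse gene sets and 3347 CPM in the 10 units counted against mouse alone, while Myl7 had medians of 9996 and 7547 CPM and Actc1 of 8838 and 6955 CPM. Medians of Myl4, Tnnt2, Tnni1, Tnnc1 and Myh7 were also higher in the 4 libraries. Myh6 had medians of 608 and 770 CPM, and its range of 442 to 722 CPM in the 4 libraries lay mostly inside the 446 to 1160 CPM of the others. Each of the WT, Dnmt3a KO and Dnmt3b KO groups held at least 1 of the 4 libraries, and with a covariate for the reference none of the 9 was called in this class in Dnmt3a KO or Dnmt3b KO either (edgeR).

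Of 4 classes outside the heart with enough Dnmt1 KO cells for a test, ExE mesoderm-like and endothelium-like cells had 2 troponin genes, Tnni1 and Tnnt2, called higher. Neither was called in ExE endoderm-like or gut-like cells. Tnnt2 in ExE endoderm-like cells lay at 0.369 to 0.807 CPM in Dnmt1 KO, below all WT embryos at 0.929 to 7.02 CPM (log2 fold change -2.06 ± 0.85, edgeR adjusted p = 0.0789). Its WT mean there, 2.40 CPM, is no higher than the 2.67 CPM of WT erythroid-like cells, which should lack it, and no change is read from it. In ExE mesoderm-like cells, which form the mesodermal layer of the yolk sac and amnion, 4 members were called (6.86% of genes called), 3 higher and 1 lower. The class held different clusters in the 2 groups, with 95.4% of its 452 Dnmt1 KO cells in cluster 38 and 671, 457 and 195 of its 1338 WT cells in clusters 18, 33 and 46, so the kind of cell and the level per cell cannot be told apart. Tnni1 ran from 56.8 to 134 CPM over WT embryos and lay at 402, 315 and 346 CPM in Dnmt1 KO 1, 2 and 3. Tnnt2 ran from 83.5 to 167 CPM in WT and lay at 263, 236 and 280 CPM. Every KO embryo lay above every WT embryo for both troponins. Over the whole embryo 10.9% of all genes had every Dnmt1 KO embryo above every WT embryo, and this share was not counted within the class. Tnni1 rose by 2.04 ± 0.26 on the log2 scale (edgeR, adjusted p = 1.15e-05) and Tnnt2 by 1.17 ± 0.20 (adjusted p = 0.000272; 0.0264 with the Y-linked covariate).

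Myl7 in the same class ran from 20.9 to 48.8 CPM in WT and lay at 60.4, 54.8 and 76.3 CPM in Dnmt1 KO, all above WT. It rose by 1.06 ± 0.26 on the log2 scale (edgeR, adjusted p = 0.00491), a call lost without Dnmt1 KO 1 (adjusted p = 0.0159), without Dnmt1 KO 3 (0.0436), with the Y-linked covariate (0.0423), or without WT 1 or WT 2, where the fold change was under 1. Actc1 fell by 1.68 ± 0.40 (adjusted p = 0.00414), also lost without Dnmt1 KO 1 (0.0435) or Dnmt1 KO 2 (0.0284). Tnni1 kept its call in this class in each of these settings.

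In endothelium-like cells Tnni1 and Tnnt2 were called higher as well, with 8.84% of genes called. Of its 374 Dnmt1 KO cells 44.4% were in cluster 50, which held 0.181% of the 2205 WT cells, and 53.2% were in cluster 10 with 51.4% of the WT cells. Tnni1 ran from 4.12 to 30.4 CPM in WT and lay at 76.3, 83.6 and 97.7 CPM in Dnmt1 KO 1, 2 and 3. Tnnt2 ran from 5.34 to 29.3 CPM in WT and lay at 54.6, 38.6 and 61.3 CPM. Again no KO embryo overlapped WT, and the share of all genes that did the same in this class was not counted. Tnni1 rose by 2.97 ± 0.57 on the log2 scale (edgeR, adjusted p = 0.000664) and kept its call without each library in turn, and Tnnt2 rose by 2.16 ± 0.48 (adjusted p = 0.00229), a call lost without Dnmt1 KO 1 (0.0111), without Dnmt1 KO 3 (0.018) or with the Y-linked covariate (0.0151). Myl7 also lay above every WT embryo there, at 93.9 to 121 CPM against 12.9 to 83.3 CPM, and was not called (adjusted p = 0.0119). The library labelled Dnmt3b KO 12 stood apart from its group in both classes, with Tnni1 at 294 CPM in ExE mesoderm-like cells, against 91.3 and 126 CPM in Dnmt3b KO 1+2 and 11, and at 76.2 CPM in endothelium-like cells. Tnni1 and Tnnt2 are neighbours on the plus strand of chromosome 1, 25365 bases apart (mm10, GENCODE vM21: Tnni1 chr1:135779434-135810989, Tnnt2 chr1:135836354-135852260).

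**Figure D5:**
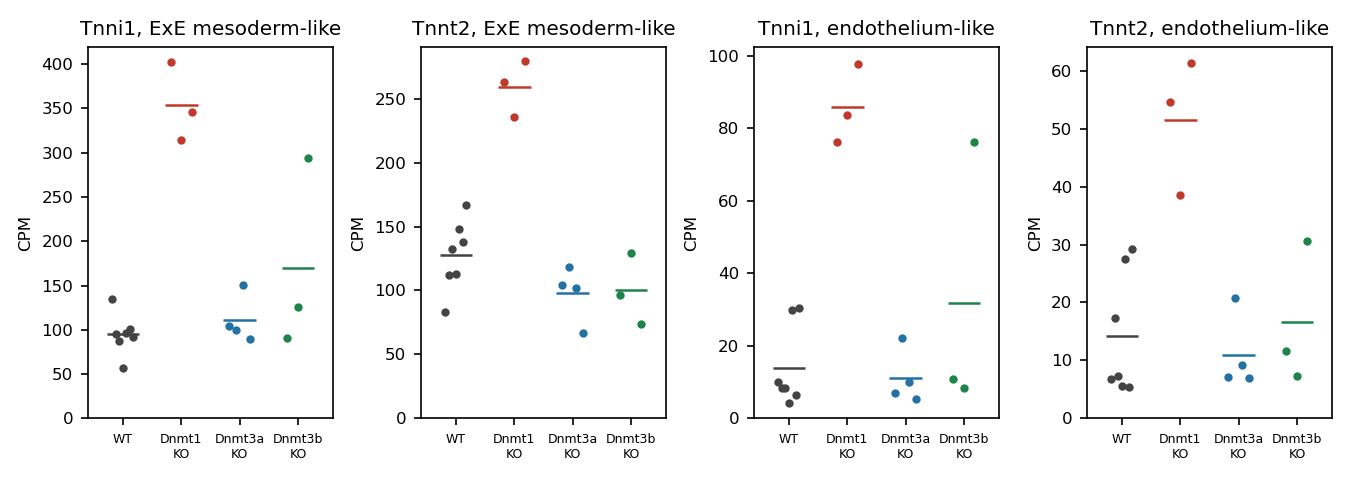
Level of Tnni1 and Tnnt2 in ExE mesoderm-like and endothelium-like cells, as CPM per embryo by group, with 1 dot per embryo. The 3 Dnmt1 KO embryos lie above all WT embryos in each panel, and the library labelled Dnmt3b KO 12 reaches 294 and 76.2 CPM for Tnni1.

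A further share of the troponin UMIs of Dnmt1 KO embryos lay in extraembryonic clusters. Pooled over the 3 embryos, a single ExE mesoderm-like cluster carried 31.3% of Tnnt2 and 34.8% of Tnni1 UMIs of Dnmt1 KO embryos, beside the 52.8% and 38.1% in the unnamed cluster. The pooled values hide a spread between embryos. In Dnmt1 KO 1, 2 and 3 the unnamed cluster carried 57.8%, 32.2% and 58.0% of Tnnt2 and 39.2%, 23.5% and 46.8% of Tnni1. For Tnnc1, an ExE endoderm-like cluster carried 34.9%, and the ExE endoderm-like class as a whole carried 17.8% to 61.4% with a median of 27.0% over the 3 embryos, so 1 embryo weighs most in the pooled value. In gut-like cells, with 97 Dnmt1 KO cells in all, Myl7 and Myh7 were called lower at levels near 20 CPM or less in WT (7.55% of genes called). Here too the clusters differed, with 95.9% of the Dnmt1 KO cells in cluster 55 and 688 and 616 of the 1313 WT cells in clusters 21 and 29. Myl7 ran from 14.9 to 23.6 CPM in WT and lay at 1.44, 2.46 and 7.96 CPM in Dnmt1 KO, a log2 fall of 2.05 ± 0.33 (edgeR, adjusted p = 0.000127; -3.13 without Dnmt1 KO 3). In WT erythroid-like cells Myl7 averaged 6.42 CPM, up to 12.1 CPM in an embryo, so the WT gut-like level is only a little above background and the KO values lie at or below it. Myh7 ran from 13.8 to 21.3 CPM and lay at 0.963 to 5.30 CPM, a log2 fall of 2.09 ± 0.35 (adjusted p = 0.000167). Actc1 and, in ExE endoderm-like cells (5.52% of genes called), Myl4 also passed the call, at 4.18 and 2.80 CPM pooled over WT. Both levels are near the mean of 4.02 and 3.55 CPM of the same genes in WT erythroid-like cells, which should lack them, and no change is read from them. Actc1 was called higher in gut-like cells of Dnmt3b KO (0.928% of genes called), at 17.1, 7.48 and 9.14 CPM against 2.80 to 6.74 CPM in WT, a log2 rise of 1.40 ± 0.26 (adjusted p = 0.00373) that was lost without Dnmt3b KO 1+2 (adjusted p = 0.0477), WT 3 (0.0105) or WT 4 (0.0108), or with the Y-linked covariate (0.0363). In WT erythroid-like cells Actc1 reached 7.97 CPM in an embryo, and these levels are close to it in 2 of the 3 units.

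Other genes of the sarcomere were taken from a list of 40, of which 38 were tested, and genes of calcium handling and energy supply from a list of 16, of which 15 were tested. In Dnmt1 KO over the whole embryo, 17 of the 38 were called lower and 1 higher, with a median log2 fold change of -1.14, and 4 of the 15 were called lower and 2 higher, with a median of -0.58, where 6.11% of all genes were called lower and 8.15% higher. The largest falls were those of Ankrd1, a stretch-responsive protein of the titin complex (-6.04, from 31.6 CPM in WT to 0.468 CPM), Trdn, which holds the calcium release complex of the sarcoplasmic reticulum (-5.83), Acta1, the skeletal alpha actin (-4.47), Tcap, the titin cap of the Z-disc (-4.31), and Mybpc3, the cardiac myosin-binding protein C (-3.82). Myl2 and Myl3, the ventricular light chains, fell by 2.98 and 2.72 on the log2 scale. The genes that rose were Myh3, the embryonic skeletal heavy chain (4.16, from 0.0598 to 1.04 CPM), Ckm, the muscle creatine kinase (3.72, from 0.0455 to 0.620 CPM), and Fabp3, the heart fatty acid-binding protein (3.84, from 16.1 to 218 CPM). Of these, Fabp3 alone was at a substantial level, a mean over Dnmt1 KO embryos that ran from 98.3 through a median of 124 to 432 CPM. This is a sum over the whole embryo, and no level by cell class is given for it. In Dnmt3a KO no gene of either list was called by edgeR (6 of 53 at an unadjusted p under 0.05), and in Dnmt3b KO Myh3 (3.23), Ckm (2.91) and Myl9 (1.08), a smooth muscle light chain, were called higher, where 0.224% and 1.8% of all genes were called. Myl9 lay at 80.7, 51.03 and 84.8 CPM in Dnmt3b KO 1+2, 11 and 12, and Ckm and Myh3 at 1.14 CPM or less in each.

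In the Nkx2-5 pool of Dnmt1 KO, 28 of 37 other sarcomere genes tested were called lower and 1 higher, with a median of -2.66 beside -2.87 for the members and 0.01 for all genes, and 6 of 14 calcium and energy genes were called lower, with a median of -1.07, where 6.83% of all genes were called and 3.98% called lower. In cardiomyocyte-like cells no gene of either list was called by edgeR in Dnmt3a KO (4 of 50 at an unadjusted p under 0.05; 0.0511% of all genes called) or Dnmt3b KO (7 of 50; 0.613%). DESeq2 was not read for these lists.

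Genes outside these lists whose profile over 18 classes of WT embryos was most like the members' mean profile were Myot, a Z-disc protein (Pearson r = 0.987, a description over 18 classes that share the same 7 embryos), Olfr1290 (0.983), Unc13c (0.980), Plppr5 (0.980), Gm12295 (0.977), Lce3c (0.973), E130006D01Rik (0.973), Abra, an actin-binding protein of striated muscle (0.972), Gm13324 (0.971) and Sphkap (0.971). Of the 10, 4 lay under 1 CPM in cardiomyocyte-like cells (Myot, Olfr1290, Lce3c and Gm13324), while Abra reached 89.3 CPM and Sphkap 51.0 CPM. The members' own correlation with their mean profile ran from 0.841 for Tnni1 to 0.983 for Myl7.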

How the data were processed

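Single-cell RNA-seq was done on 18 libraries, each labelled as a single E8.5 embryo. The authors deposited raw UMI counts per gene and cell barcode, made with Cell Ranger on mm10; per the file headers 17 libraries used version 3.1.0 and 1, Dnmt3b KO 12, used version 5.0.0, and 4 were counted against joint human and mouse gene sets, of which mouse genes were kept. Of 162336 barcodes, 128881 had 1500 or more UMIs. Cells with over 30% mitochondrial or 35% ribosomal counts were removed, as were 7924 doublets called at 0.8% per 1000 cells. Cells were clustered with scanpy 1.11.5 (Leiden, resolution 2; 57 clusters, of which 42 were named), leaving out the members and both gene lists, and classes were named from fixed markers with the suffix "-like". Counts were summed per embryo, or per embryo and class with at least 25 cells in at least 3 embryos per group, and tested in 1 fit of the 4 groups with edgeR 4.0.16 (filterByExpr, TMM, quasi-likelihood), with p-values adjusted over all genes tested. Alternatives changed the tool (DESeq2 1.42.0), scaling, low-count filter, cells summed, clustering resolution or covariates (sex called from Y-linked counts, reference), added the replicate number as a block, or left out embryos. Dnmt3b KO 1 and 2 were summed. Shares were compared by exact permutation of embryos on log2((cells + 0.5)/(kept cells + 0.5)). The planned test of cardiomyocyte-like cells in Dnmt1 KO could not be made for lack of cells.

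Library totals ran from 36516346 to 234638944 UMIs in kept cells. Limits from counts of 0 cover counting error only, and were taken as 3 counts. Each group's embryos were labelled as separate embryos, and p-values measure the spread between them. Genes named are the 9 members, up to 10 called genes with the largest fold change per list and comparison, and the 10 genes with the most similar WT profile. The members and lists were chosen with earlier results of these data known. The Nkx2-5 pool, and the fits without Dnmt3b KO 11 and 12, were added after the data were seen. The scripts for the tests were tested on simulated data.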

Additional observations from a re-analysis of the deposited data

Results flagged for a closer look

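Dixon's test at the 95% level marked 6 of 56 sets of values, all from WT or Dnmt3a KO embryos. Dnmt1 KO and Dnmt3b KO had too few units and were not tested. Chance marks about 1 in 20 of separate sets, but these sets share embryos, so that rate cannot judge the count. WT 1 stood above the other 6 WT embryos in 5 of the 6 marked sets. In cells with an Nkx2-5 UMI it had Myl7 at 6852 CPM, Myl4 at 3206 CPM, Actc1 at 5690 CPM and Tnni1 at 1272 CPM, and over the whole embryo it had Myl4 at 199 CPM. Of the WT embryos WT 1 also had the highest share of cardiomyocyte-like cells among its Nkx2-5 cells, 46.1%, and it was the WT library counted on a combined reference; with 1 such embryo these cannot be told apart. Dnmt3a KO 1 had Myl7 at 324 CPM over the whole embryo, above 171 to 192 CPM in the other 3 embryos of its group, and also the highest share of cardiomyocyte-like cells in it, 3.57%.

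The KO groups differed from each other for 8 members, by direct tests over the whole embryo with edgeR. Relative to Dnmt3a KO, Dnmt1 KO had lower Myl4 (log2 fold change -2.23, adjusted p = 0.000549), Actc1 (-3.46, 0.000161), Tnnc1 (-1.26, 0.000661), Myh6 (-4.29, 3.83e-06) and Myh7 (-4.58, 3.43e-05). Relative to Dnmt3b KO, it had lower Myl7 (-2.06, 0.00243), Myl4 (-3.07, 0.000124), Actc1 (-4.33, 7.89e-05), Tnnt2 (-1.54, 0.00241), Tnnc1 (-2.06, 3.53e-05), Myh6 (-5.10, 1.89e-06), Myh7 (-4.92, 5.12e-05) and Ttn (-2.38, 0.00259). Tnni1 was called in neither (0.38, adjusted p = 0.378, and -0.65, adjusted p = 0.17). Without the libraries labelled Dnmt3b KO 11 and 12, Myl7 (-2.16, adjusted p = 0.0236) and Tnnt2 (-1.58, 0.0248) were no longer called against Dnmt3b KO, which was then 1 unit.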

How the results depend on the processing

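Over the whole embryo, the count of members called lower in Dnmt1 KO ran from 5 to 8 over the alternatives tried, and from 6 to 8 when 1 embryo was left out at a time. Myl7 ran from -2.06 to -1.14 and Tnnt2 from -1.17 to -0.56 in those fits, and Tnnt2 was called over cells outside the extraembryonic and blood classes (-1.03, edgeR adjusted p = 0.00925). In the Nkx2-5 pool the count ran from 8 to 9. With 1 embryo left out, the log2 difference in cardiomyocyte-like share from WT lay between -7.38 and -6.05 for Dnmt1 KO, a size set by the 0.5 cells added to counts of 0 and 1, -0.80 and -0.34 for Dnmt3a KO, and 0.20 and 0.62 for Dnmt3b KO. In Dnmt1 KO the count of members called was 1 in ExE endoderm-like cells (3 with DESeq2, 2 with the Y-linked covariate, 2 with a covariate for the joint reference, 0 to 3 with 1 embryo left out), 4 in ExE mesoderm-like cells (2 with the Y-linked covariate; 2 to 4) and 2 in endothelium-like cells (1 with the Y-linked covariate; 1 to 3). The causes were not tested.

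Changes of sign were all among fold changes that were not called. In cardiomyocyte-like cells of Dnmt3a KO, Myl7, Tnnt2 and Tnnc1 were 0.048, 0.073 and 0.037 at Leiden resolution 1; Myl4, Actc1, Tnnt2 and Myh7 were -0.016, -0.14, 0.017 and -0.13 with the Y-linked covariate; and Myl4, Actc1 and Tnni1 were -0.10, -0.034 and -0.049 with the reference covariate. With 1 embryo left out, Myl7 ran from -0.16 to 0.063, Myl4 from -0.0020 to 0.25, Actc1 from -0.017 to 0.31, Tnnt2 from -0.13 to 0.068, Tnnc1 from -0.20 to 0.059 and Myh7 from -0.15 to 0.38. In cardiomyocyte-like cells of Dnmt3b KO, Myl7 was -0.040 with the Y-linked covariate, and Myh6 and Myh7 were 0.020 and 0.053 with Dnmt3b KO 1 and 2 as separate libraries; Myl7 ran from -0.064 to 0.24, Myh6 from -0.28 (-0.73 without Dnmt3b KO 1+2) to 0.031 and Myh7 from -0.54 to 0.060. Over whole embryos of Dnmt3a KO, Tnni1 was 0.24 with the Y-linked covariate, and Myh7 was 0.018 with no filter, 0.038 with the reference covariate, 0.042 over all barcodes of 1500 or more UMIs and 0.00061 outside the extraembryonic and blood classes; Actc1 ran from -0.35 to 0.037, Tnni1 from -0.21 to 0.12 and Myh7 from -0.22 to 0.23. Over whole embryos of Dnmt3b KO, Myh6 ran from -0.31 to 0.65, Myh7 from -0.18 to 0.63 and Ttn from -0.32 to 0.42.

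The replicate numbers in the labels did not pair the embryos, since 13 pairs of embryos with the same number had deviations correlated from -0.485 to 0.556 and 104 other pairs from -0.547 to 0.650. With the replicate block, 5 of 9 members were called in Dnmt1 KO over the whole embryo (Myl7 at -1.97, edgeR adjusted p = 0.0241, and Ttn at -2.35, adjusted p = 0.0176, were not) and 0 in Dnmt3a KO and Dnmt3b KO. Under the block, cardiomyocyte-like cells of Dnmt3a KO had Myl4, Actc1, Tnni1 and Myh7 at -0.38, -0.56, -0.37 and -0.36, and those of Dnmt3b KO had Myl7, Myl4, Actc1, Tnni1, Tnnc1, Myh6, Myh7 and Ttn at -0.25, -0.064, -0.0096, -0.086, -0.11, 0.49, 0.19 and 0.35.

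No fit in cardiomyocyte-like cells was possible for Dnmt1 KO, which had 1 such cell, under any alternative. Uncalled values of Dnmt3a KO and Dnmt3b KO, each from 3 or 4 units, do not show equality with WT. Low counts limit Myh6 and Myh7 in Dnmt1 KO, at 0.152 to 1.31 CPM, and members outside the heart.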
